A study of Arabidopsis thaliana with 24 samples.

Results

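Loss of DXO1 was examined in 21-day-old soil-grown Arabidopsis thaliana seedlings by comparing the mutant dxo1-2 with the wild type Col-0. The comparison takes 8 of the 24 libraries in the series, 4 of each genotype, chosen by their labels. The labels name no transgene in either genotype. The remaining libraries are dxo1-2 plants expressing versions of DXO1 from the constitutive 35S promoter. They entered the fit for the estimate of spread, the filter on low counts and the scaling of libraries, and are not compared here. Long-day growth was shared by all plants. The labels do not say how the dxo1-2 allele was made, how many plants went into a library, or whether libraries of a genotype came from separate cultures. The p-values then measure only the spread between these libraries. RNA was primed with oligo(dT) and reads were taken near transcript 3' ends, so a count stands for a polyadenylated end of a transcript. Levels are given as CPM, the count scaled to a common library total after a correction for library composition.

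DXO1 belongs to a conserved family of enzymes that act on the 5' ends of RNA and remove noncanonical caps such as NAD. The plant protein also carries an N-terminal extension. As background, plants without DXO1 are known to be small and pale. Translation on cytosolic and plastid ribosomes, photosynthesis, the antagonistic hormones salicylate and jasmonate, and nutrient uptake are the processes described first.

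Total counts per library ran from 1270033 to 2690954 in dxo1-2 and from 1449681 to 2285751 in Col-0. Replicate 1 of dxo1-2 stood apart by chi-square. Its chi-square per degree of freedom against the other dxo1-2 libraries was 5.84 to 11.8, where the other pairs of that genotype gave 2.35 to 3.95 and the Col-0 pairs 1.75 to 4.53. This measure grows with depth, and replicate 1 was the deepest of the 8 libraries. Its Pearson correlations on log2 CPM with replicates 2, 3 and 4 were 0.931, 0.953 and 0.898. The other dxo1-2 pairs gave 0.949 to 0.963. With the Col-0 libraries replicate 1 gave 0.889 to 0.905, a range that holds its value with replicate 4. The other dxo1-2 libraries gave 0.832 to 0.905 with Col-0. Root markers were nearly absent, with 7 of 12, among them CASP1 and MYB36, at 0 in all 8 libraries and a summed level of 3.34 to 5.07 CPM in dxo1-2 and 5.45 to 14.3 CPM in Col-0. The flower identity genes AP1, PI and LFY were at 0. Seed storage and oleosin transcripts were detected in both genotypes, at a summed 99.4 to 343 CPM in dxo1-2 and 138 to 229 CPM in Col-0, and of the 8 tested none was called by edgeR or DESeq2 and none had an unadjusted p under 0.05.

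DXO1 itself (AT4G17620, TAIR10.1 chr4:9821874-9825039, plus strand) was checked first. Its level was 2.67, 3.33, 3.22 and 4.23 CPM in dxo1-2, against 11.8, 15.9, 19.1 and 15.5 CPM in Col-0. Every mutant library lay below every wild-type library. This was a log2 change of -2.23 ± 0.31 (SE) at an edgeR adjusted p of 5.7e-06, and transcript ends of the gene were still detected in the mutant. The labels do not place the lesion relative to the counted 3' end.

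In dxo1-2, 3072 of 13592 genes tested were called different from Col-0 at an adjusted p under 0.05 (22.6%). Of these, 1994 rose (14.7% of genes tested) and 1078 fell (7.93%). The 2 genotypes did not overlap in 26.1% of genes tested. The rises were also the larger changes. Among called genes, the median size of the log2 fold change was 1.23 for rises and 1.00 for falls, 1357 rises and 546 falls were past 2-fold, and 318 rises and 75 falls were past 4-fold. Rises made up 64.9% of the called genes, but 51.6% after a trend of expression on gene length was removed. Without replicate 1 of dxo1-2, 2030 genes rose and 1217 fell.

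The lists with the largest shares of tested genes called higher were cytosolic ribosomal proteins (88.3%), salicylate output (75%), flavonoid synthesis (62.5%), iron status (60%), sulfur status (55.6%) and ribosome assembly (42.5%), leaving aside a heat shock list with 1 gene tested. Those with the largest shares called lower were jasmonate catabolism (71.4%), cold response (68.8%), jasmonate synthesis (64.3%), photosystem antenna (61.9%) and photosystem core (53.1%). Chlorophyll synthesis, the clock, glucosinolates and abscisic acid held genes called in both directions, as the plot of fold changes by list shows. Over all genes tested 14.7% rose and 7.93% fell, and each count by list below is to be read beside these shares. Chlorophyll synthesis (9.52% and 4.76%) lay under both. Genes of RNA decay and caps (10% and 10%) and plastid ribosomal proteins (13.8% and 13.8%) lay near them.

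**Figure D1:**
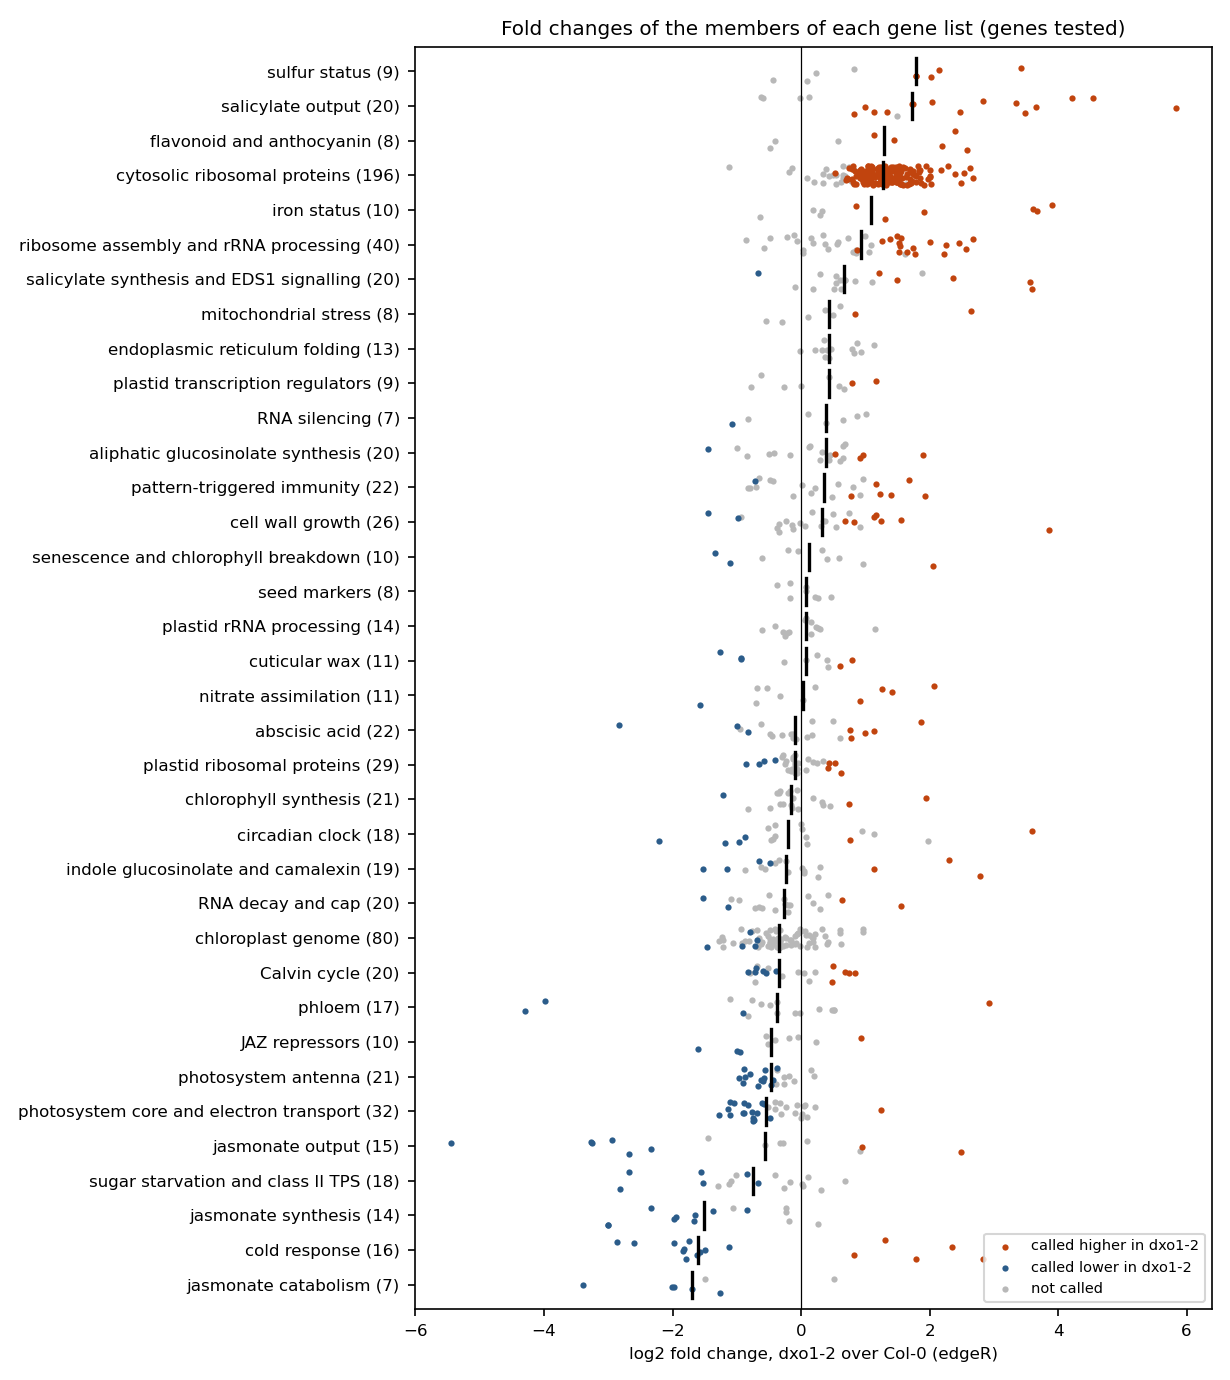
Each point is a gene tested, placed by its log2 fold change of dxo1-2 over Col-0 on the x axis, in gene lists on the y axis ordered by median (black bars), with the number of genes tested in brackets. Red and blue points were called higher and lower, and grey points were not called. KTI1 and WSD1, with no count in 1 of the genotypes, are not drawn. Ribosomal protein genes lie almost wholly right of 0, and jasmonate synthesis genes left of it.

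Cytosolic ribosomes, which translate nuclear messages, are built from proteins encoded by several near-identical genes each. Their genes carry promoter elements called site II and telo box that are common in genes of translation. The promoters shown here are those of 2 ribosomal protein genes and of FIB1, which encodes the nucleolar rRNA methylase fibrillarin. All were called higher in dxo1-2. AT1G70600, the named ribosomal protein gene with the smallest p, held neither element in its promoter and is not shown. Each line gives the 250 bases before the annotated start in TAIR10.1 (RefSeq), 5' to 3', with matches to site II (TGGGCC or TGGGCT) and telo box (AAACCCTA) on either strand in capitals.
RPL34 promoter, chr1:26189525-26189774, plus strand: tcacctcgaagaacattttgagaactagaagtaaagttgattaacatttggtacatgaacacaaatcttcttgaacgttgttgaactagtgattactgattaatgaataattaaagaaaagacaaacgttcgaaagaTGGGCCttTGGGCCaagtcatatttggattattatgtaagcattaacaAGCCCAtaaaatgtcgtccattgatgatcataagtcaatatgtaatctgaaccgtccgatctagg
AT2G37190 promoter, chr2:15620157-15620406, minus strand: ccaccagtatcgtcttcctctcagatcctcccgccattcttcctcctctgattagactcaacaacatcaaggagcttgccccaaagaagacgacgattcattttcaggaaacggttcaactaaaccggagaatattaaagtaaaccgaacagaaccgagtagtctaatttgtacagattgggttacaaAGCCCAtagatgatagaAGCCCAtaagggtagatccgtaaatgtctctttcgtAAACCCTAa
FIB1 promoter, chr5:21293897-21294146, plus strand: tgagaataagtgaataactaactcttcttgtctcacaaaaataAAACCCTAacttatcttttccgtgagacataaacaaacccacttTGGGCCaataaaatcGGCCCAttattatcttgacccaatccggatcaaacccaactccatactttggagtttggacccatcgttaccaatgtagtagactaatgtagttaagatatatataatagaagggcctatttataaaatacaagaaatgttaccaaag
Site II was found in 69.9% of the promoters of the 196 ribosomal protein genes tested and in 60% of the 40 ribosome assembly genes tested, against 24% of all 13505 promoters examined. The telo box was in 19.4% and 15% of these lists and in 3.44% of all. Among genes called higher, 28.5% held site II, and among genes called lower, 17.1%. A match is a description of letters and not a binding site.

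Of 219 cytosolic ribosomal protein genes, 196 were tested, and 173 of them rose while none fell. The median log2 fold change of those tested was 1.27, where the median of all genes tested was 0.02. The genes together took 4.9, 5.29, 5.39 and 5.08% of counts in dxo1-2, against 1.79, 2.23, 1.61 and 2.21% of counts in Col-0. The lowest mutant library was thus above the highest wild-type library. In bulk tissue, a change in the share of cells of a type and a change in RNA per cell cannot be told apart. Both subunits took part. Of 76 small-subunit genes 66 rose, with a median of 1.14, and of 120 large-subunit genes 107 rose, with a median of 1.32.

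The shift was broad and moderate. The central 80% of ribosomal protein genes had log2 fold changes between 0.72 and 1.81, and 75.5% were past 2-fold higher, where 10.9% of other genes were. Past 4-fold there were 11. RPL34 had 445, 546, 512 and 545 CPM in dxo1-2, against 141, 157, 162 and 162 CPM in Col-0. This was a log2 change of 1.72 ± 0.13 (SE) at an edgeR adjusted p of 4.3e-10. The large-subunit gene AT1G70600 had 463, 552, 555 and 534 CPM in dxo1-2, against 107, 119, 87.9 and 118 CPM in Col-0. The genotypes lay far apart, with a log2 change of 2.28 ± 0.14 (SE) at an edgeR adjusted p of 4.5e-12. AT2G37190, a member of the L11 family, had 133, 162, 188 and 160 CPM in dxo1-2, against 31.7, 45.4, 39.5 and 44.2 CPM in Col-0, and thus a log2 change of 2.00 ± 0.16 (SE) at an edgeR adjusted p of 6.7e-10. Paralogs of 1 protein share sequence, and how the authors counted reads that map to several copies is not given in the sources used here, so values of single paralogs are uncertain while the sum is less so.

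A few ribosomal protein genes stood outside the shift. The 23 that were not called had log2 fold changes between -1.12 and 1.63. P40, the laminin-receptor-like protein of the small subunit, had 274, 223, 238 and 152 CPM in dxo1-2, against 161, 207, 124 and 213 CPM in Col-0, so the genotypes overlapped. RPL18AA had 34.7, 59.9, 48.8 and 69.3 CPM in dxo1-2, against 57.7, 60.5, 55.2 and 57.3 CPM in Col-0, again with overlap. These were chosen after their values were seen.

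Factors that make ribosomes rose in part. Of 52 listed genes 40 were tested, and 17 rose while none fell, with a median log2 fold change of 0.93. Their summed level was 1150, 1080, 1190 and 1030 CPM in dxo1-2, against 461, 514, 478 and 575 CPM in Col-0. FIB1 had 220, 261, 221 and 241 CPM in dxo1-2, against 79, 88.5, 68.1 and 98.6 CPM in Col-0, a log2 change of 1.50 ± 0.15 (SE) at an edgeR adjusted p of 3.3e-08. Members of the box H/ACA particle, which guides pseudouridine formation in rRNA, were among the called genes. AT3G03920, annotated as a Gar1/Naf1 subunit, had 149, 232, 209 and 192 CPM in dxo1-2, against 26, 43.1, 40.2 and 57.9 CPM in Col-0, and NAP57, its pseudouridine synthase, had 76.5, 68.6, 101 and 78.6 CPM in dxo1-2, against 18, 22.7, 20.4 and 36.4 CPM in Col-0. Neither gene overlapped between genotypes, with log2 changes of 2.23 (SE 0.23) and 1.74 (SE 0.19) at edgeR adjusted p of 4.9e-08 and 1.4e-07. By contrast NUC-L1, the main nucleolin gene, had 105, 81.3, 110 and 60 CPM in dxo1-2, against 79.9, 112, 79 and 108 CPM in Col-0, which overlapped, and was not called. When only genes with 10 counts in every library were tested, 6 of this list rose.

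**Figure D2:**
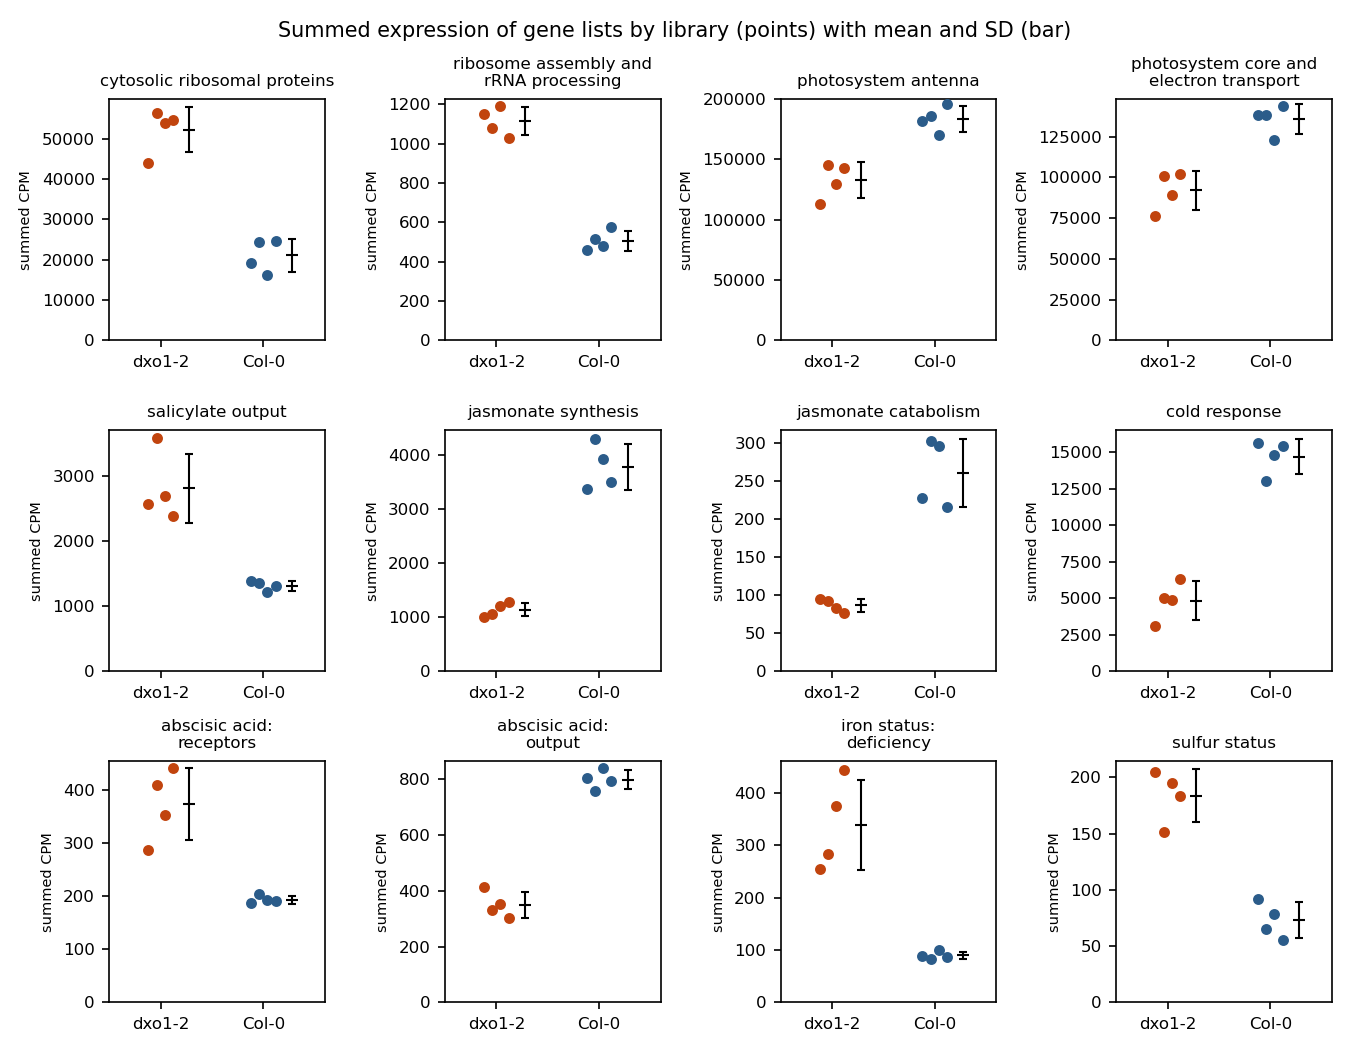
Summed CPM (y axis, linear from 0) of the genes in 12 lists or parts of lists for the dxo1-2 and Col-0 libraries (x axis). Points are libraries and bars are means with SD (n = 4 each). In none of these 12 selected panels do the libraries of the genotypes overlap. Some lists not drawn do overlap, such as the Calvin cycle, with 40900 to 52500 CPM in dxo1-2 and 48500 to 64700 CPM in Col-0. Of all single genes tested, 26.1% did not overlap.

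Ribosomal protein genes are short, and in these libraries the fold change went with gene length. In the shortest tertile of genes by exon length 27.3% rose and 6.11% fell, and in the longest tertile 4.31% rose and 9.35% fell. The part of length in the results was not tested, but its size was measured. With the trend removed from each library, 156 of the 196 ribosomal protein genes rose and 1 fell, with a median of 0.91. Within the shortest tertile, 91.6% of 179 ribosomal protein genes rose, against 24.6% of 4323 other genes. The shortest tertile of genes without ribosomal proteins held 62.5% ± 4.63 of counts in dxo1-2 and 62.6% ± 2 in Col-0 (SD, n = 4 each). Replicate 1 of dxo1-2 held 56.2%, under the 62.1 to 66.9% of the other dxo1-2 libraries. Such a sum is weighted to abundant genes, among them photosystem antenna and core genes that fell. It therefore cannot show whether a trend over genes was present.

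**Figure D3:**
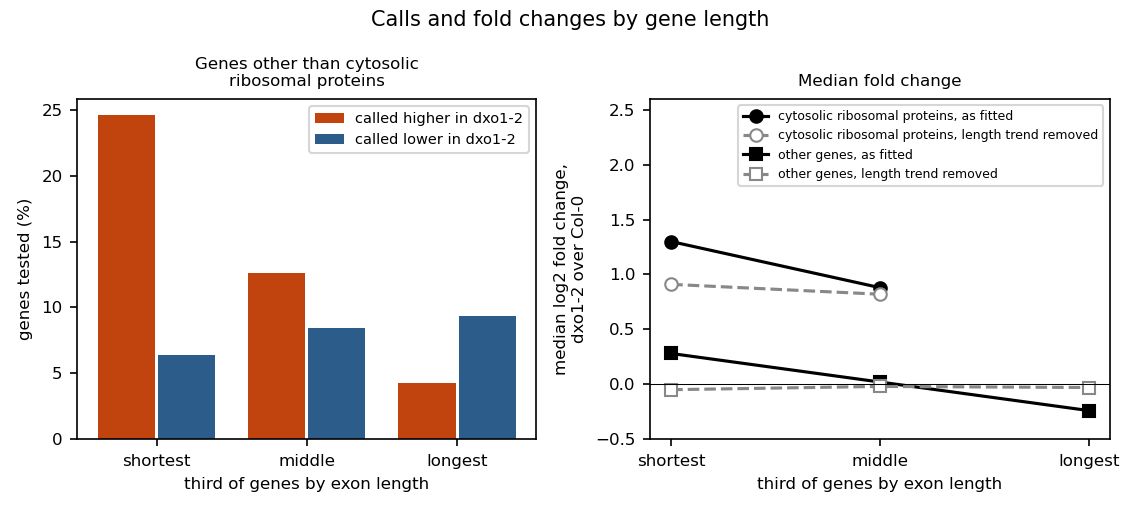
Left, percent of genes tested other than cytosolic ribosomal proteins that were called higher (red) or lower (blue) in dxo1-2, by tertile of exon length. Right, median log2 fold change (y axis) by tertile, as fitted (black) and with the length trend removed (grey, open); groups under 5 genes are not drawn. The medians of other genes run from 0.28 to -0.24 as fitted, and ribosomal proteins stay above them in both.

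Short nuclear RNAs that oligo(dT) priming caught also differed, and these loci were chosen after their type counts were seen. Of 12 small nucleolar RNA loci tested 5 rose (41.7%) and none fell, and of 6 spliceosomal RNA loci 3 rose (50%) and none fell. Over all genes tested 14.7% rose, and in the shortest tertile by exon length 27.3% did. Of the loci that rose, AT5G00755, U1.6 and AT1G07897 averaged 0.118, 0.149 and 0.755 CPM in Col-0. These levels are near 0, so a fall of these loci could hardly be called. The snoRNA locus AT1G08643 had 9.02, 15.3, 8.74 and 11.8 CPM in dxo1-2, against 3.78, 1.51, 0.681 and 3.58 CPM in Col-0. The U2 small nuclear RNA gene U2.5 had 11, 21.3, 11 and 17.8 CPM in dxo1-2, against 1.42, 3.02, 2.73 and 5.97 CPM in Col-0. These had log2 changes of 2.1 (SE 0.44) and 2.19 (SE 0.48), at edgeR adjusted p of 7.9e-04 and 0.00118. The locus AT2G01020, a short rRNA that the reference names 5S, had 11.4, 12.7, 12.4 and 6.76 CPM in dxo1-2, against 1.42, 2.27, 2.73 and 1.79 CPM in Col-0. The 18S rRNA locus AT3G41768 averaged 14.1 ± 4.05 CPM in dxo1-2 and 15.1 ± 4.31 CPM in Col-0 (SD, n = 4 each) and was not called. Such loci have near-identical copies and few counts.

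Light-harvesting proteins bind chlorophyll and pass energy to the reaction centres of photosystems I and II. Of 21 antenna genes 13 fell and none rose, with a median log2 fold change of -0.47, and of 32 core and electron transport genes 17 fell and 1 rose, with a median of -0.54. The antenna genes summed to 113000, 145000, 130000 and 143000 CPM in dxo1-2, against 182000, 186000, 170000 and 196000 CPM in Col-0. The core genes summed to 76500, 101000, 89400 and 102000 CPM in dxo1-2, against 138000, 138000, 123000 and 144000 CPM in Col-0. Neither sum overlapped between genotypes.

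The falls were small and reached both photosystems. All 12 nuclear photosystem I core genes had negative values and 8 were called, as were 6 of 11 photosystem II genes. LHCA2, a photosystem I antenna protein, had 3490, 3980, 3730 and 3720 CPM in dxo1-2, against 7240, 7390, 6900 and 7520 CPM in Col-0, a log2 change of -0.96 ± 0.12 (SE) at an edgeR adjusted p of 7.5e-07. PSAG, a photosystem I core subunit, had 2520, 2870, 2490 and 2440 CPM in dxo1-2, against 5800, 5590, 5180 and 5580 CPM in Col-0, a log2 change of -1.10 ± 0.12 (SE) at an edgeR adjusted p of 8.2e-08. PSBP-1 of the oxygen-evolving complex had 4190, 4550, 4180 and 3830 CPM in dxo1-2, against 9070, 9390, 8300 and 9270 CPM in Col-0. In each the highest mutant library was well under the lowest wild-type one. The median exon length was 1280 bases for antenna genes and 1060 bases for core genes. With the length trend removed 17 antenna and 26 core genes fell, and the part of length was not tested.

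1 gene of electron transport moved against the rest. FD1, which encodes a leaf ferredoxin, had 485, 566, 506 and 523 CPM in dxo1-2, against 232, 253, 174 and 222 CPM in Col-0, a log2 change of 1.24 ± 0.13 (SE) at an edgeR adjusted p of 1.2e-07. The antenna gene CAB2 was level, with 16900 ± 2260 CPM in dxo1-2 and 15300 ± 2360 CPM in Col-0 (SD, n = 4 each, log2 fold change 0.15, not called). Antenna genes have close paralogs, and reads may be shared between them.

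Of 20 Calvin cycle genes 5 rose and 6 fell. Of the Rubisco small subunit genes, RBCS1B had 1800, 1840, 1710 and 1300 CPM in dxo1-2, against 904, 1210, 559 and 1050 CPM in Col-0, a log2 change of 0.84 ± 0.18 (SE) at an edgeR adjusted p of 0.00107. RBCS1A averaged 18600 ± 2880 CPM in dxo1-2 and 28000 ± 3600 CPM in Col-0, and fell by 0.59 on the log2 scale. The aldolase gene FBA1 rose, with 2020 ± 310 CPM in dxo1-2 and 1250 ± 192 CPM in Col-0, while the fructose bisphosphatase gene HCEF1 fell, with 364 ± 132 CPM in dxo1-2 and 650 ± 66.2 CPM in Col-0 (SD, n = 4 each). CP12-2, a linker protein that holds 2 cycle enzymes inactive, rose with 611 ± 117 CPM in dxo1-2 and 366 ± 42 CPM in Col-0. The count of falls was 3 without replicate 1 of Col-0 or without replicate 2, 3 or 4 of dxo1-2. RBCS copies share most of their sequence, so their split is uncertain.

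Chlorophyll synthesis showed a single large rise. Of 21 genes 2 rose (9.52%) and 1 fell (4.76%), against 14.7% and 7.93% of all genes tested. GUN4, which activates the magnesium chelatase that starts the chlorophyll branch, had 555, 749, 609 and 736 CPM in dxo1-2, against 163, 185, 144 and 198 CPM in Col-0, a log2 change of 1.94 ± 0.16 (SE) at an edgeR adjusted p of 2.8e-09. The chelatase subunits themselves were not called, with log2 fold changes of -0.17 for CHLI1 and -0.83 for GUN5. CRD1, a subunit of the later cyclase step, rose with 1810 ± 328 CPM in dxo1-2 and 1080 ± 75.4 CPM in Col-0. PPOX, which makes protoporphyrin, fell with 38.7 ± 17.2 CPM in dxo1-2 and 92.5 ± 12.5 CPM in Col-0 (SD, n = 4 each). Of 9 tested regulators of plastid transcription and chloroplast development 2 rose, and 7 were not called, with log2 fold changes between -0.78 and 0.67. The transcription factors GPRI1, also known as GLK1, and GNC, which drive chloroplast genes, were the 2 that rose, by 0.79 (SE 0.17) and 1.17 (SE 0.33) on the log2 scale at edgeR adjusted p of 0.00128 and 0.0114.

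Plastid ribosomes translate the messages of the chloroplast genome. Of 29 nuclear genes for plastid ribosomal proteins 4 rose and 4 fell (13.8% each), against 14.7% and 7.93% of all genes tested. Of 14 plastid rRNA processing genes none was called by edgeR or DESeq2 and 1 had an unadjusted p under 0.05, while 2 were called higher with the length trend removed. RPS1 had 420, 348, 404 and 346 CPM in dxo1-2, against 562, 608, 518 and 564 CPM in Col-0, a log2 change of -0.57 ± 0.13 (SE) at an edgeR adjusted p of 0.00152. With the length trend removed 16 plastid ribosomal protein genes fell and 1 rose. As fitted, the falls counted 2 without replicate 2 or 4 of Col-0 or replicate 2 of dxo1-2, and the rises 1 or 2 without replicate 1 or 3 of Col-0 or replicate 3 or 4 of dxo1-2. Of 133 chloroplast genome genes 80 were tested, and 5 fell (6.25%, against 7.93% of all genes tested). The count of falls ran from 0 to 19 over the other settings. The summed level of the 133 genes was 30100, 39100, 38900 and 47700 CPM in dxo1-2, against 56600, 48900, 43600 and 49000 CPM in Col-0. The ranges overlapped. The falls counted 1 to 3 without replicate 1 or 2 of Col-0 or replicate 2 or 3 of dxo1-2. As background, plastid transcripts mostly lack long poly(A) tails.

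Salicylate accumulates after infection, and through NPR1 it induces the PR genes and a set of WRKY transcription factors. Of 20 tested output genes 15 rose and none fell, with a median log2 fold change of 1.73. Their summed level was 2570, 3580, 2680 and 2380 CPM in dxo1-2, against 1380, 1350, 1210 and 1310 CPM in Col-0. PR1, the classic marker, had 326, 556, 163 and 109 CPM in dxo1-2, against 4.26, 6.05, 3.41 and 6.57 CPM in Col-0. The mutant libraries spread about 5-fold among themselves yet all lay above 100 CPM, where no wild-type library passed 7. This was a log2 change of 5.83 ± 0.58 (SE) at an edgeR adjusted p of 3.4e-08. BGL2 and PR5, which encode other pathogenesis-related proteins, averaged 160 ± 79.9 CPM in dxo1-2 and 28.7 ± 1.7 CPM in Col-0, and 340 ± 124 CPM in dxo1-2 and 103 ± 19.1 CPM in Col-0. WRKY54 had 125, 135, 153 and 144 CPM in dxo1-2, against 24.6, 18.9, 19.8 and 14.3 CPM in Col-0, a log2 change of 2.83 ± 0.18 (SE) at an edgeR adjusted p of 1.1e-11. NIMIN1, which encodes a protein that binds and restrains NPR1, averaged 38.3 ± 13.4 CPM in dxo1-2 and 2.86 ± 1.26 CPM in Col-0 (SD, n = 4 each).

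Upstream of these outputs, of 20 tested genes of salicylate synthesis and EDS1 signalling 5 rose and 1 fell, and the count of rises was 9 with the length trend removed. PAD4, the partner of EDS1 in resistance signalling, had 59.4, 59.9, 63 and 48.2 CPM in dxo1-2, against 24.1, 18.9, 18.4 and 19.7 CPM in Col-0, a log2 change of 1.50 ± 0.19 (SE) at an edgeR adjusted p of 1.5e-06. NUDT6, a nudix hydrolase that cuts NADH and modulates this pathway, had 15.4, 21.3, 21.2 and 11.8 CPM in dxo1-2, against 3.31, 6.81, 0.681 and 2.99 CPM in Col-0, a log2 change of 2.36 ± 0.35 (SE) at an edgeR adjusted p of 1.4e-05. ALD1, which starts pipecolate synthesis, averaged 11.3 ± 6.86 CPM in dxo1-2 and 0.882 ± 0.718 CPM in Col-0. The synthesis enzyme EDS16, isochorismate synthase, had 10.7, 6.66, 7.82 and 9.3 CPM in dxo1-2, against 6.15, 4.54, 8.86 and 4.78 CPM in Col-0, overlapping, and was not called. NPR1 was the gene that fell, with 33.7, 22.6, 28.1 and 17.8 CPM in dxo1-2, against 40.2, 46.9, 46.3 and 33.4 CPM in Col-0. The genotypes overlapped, and the call was lost in 7 of 17 other settings.

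Pattern-triggered immunity starts at surface receptors that sense microbial molecules. Of 22 tested genes 6 rose and 1 fell, with 3 falls without replicate 1 of dxo1-2. Among 6 tested genes that elicitors induce 3 rose, while among 16 receptors and partners 3 rose and 1 fell. WRKY40 had 66.8, 44.6, 58.9 and 38 CPM in dxo1-2, against 16.1, 16.6, 19.1 and 14.3 CPM in Col-0, a log2 change of 1.68 ± 0.32 (SE) at an edgeR adjusted p of 0.00029. The mitogen-activated kinase gene MPK3 averaged 205 ± 30.4 CPM in dxo1-2 and 77.4 ± 9.65 CPM in Col-0. The shared co-receptor gene BAK1 fell, averaging 32 ± 8.58 CPM in dxo1-2 and 53.2 ± 5.21 CPM in Col-0 (SD, n = 4 each).

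Jasmonate is made from plastid linolenate by lipoxygenase, allene oxide synthase and cyclase and, in peroxisomes, by OPR3, and JAR1 joins it to isoleucine to give the active hormone. Of 14 synthesis genes tested 9 fell and none rose, with a median log2 fold change of -1.51. Their summed level was 1010, 1060, 1210 and 1280 CPM in dxo1-2, against 3370, 4290, 3920 and 3500 CPM in Col-0. The mutant sums were all under 1300 CPM and the wild-type sums all over 3300. AOC1 had 45.4, 52, 82.3 and 89.6 CPM in dxo1-2, against 454, 633, 591 and 473 CPM in Col-0, a log2 change of -3.01 ± 0.30 (SE) at an edgeR adjusted p of 4.3e-08. LOX3 had 28.1, 12.7, 18.4 and 11 CPM in dxo1-2, against 159, 156, 174 and 107 CPM in Col-0, a log2 change of -3.01 ± 0.32 (SE) at an edgeR adjusted p of 9.8e-08. JAR1 had 24, 29.3, 27.6 and 19.4 CPM in dxo1-2, against 97, 108, 115 and 80 CPM in Col-0, a log2 change of -1.98 ± 0.21 (SE) at an edgeR adjusted p of 6.7e-08. The reductase gene OPR3 averaged 78.4 ± 14.3 CPM in dxo1-2 and 304 ± 42.7 CPM in Col-0. Each of these was lower in all 4 mutant libraries than in any wild-type library.

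Genes that remove jasmonate, which the hormone itself induces, went the same way. Of 7 tested 5 fell. ILL6, an amidohydrolase that splits the active conjugate, had 13, 16, 12.4 and 11.8 CPM in dxo1-2, against 47.8, 76.4, 46.3 and 39.4 CPM in Col-0, a log2 change of -1.97 ± 0.26 (SE) at an edgeR adjusted p of 2.2e-06. JMT, which makes methyl jasmonate, averaged 1.76 ± 0.927 CPM in dxo1-2 and 8.21 ± 3.1 CPM in Col-0. Output genes were mixed, with 6 falls and 3 rises among 15. CORI3 had 40.1, 23.3, 30.4 and 22.8 CPM in dxo1-2, against 272, 330, 296 and 256 CPM in Col-0, a log2 change of -3.27 ± 0.25 (SE) at an edgeR adjusted p of 4.1e-10. VSP2, a vegetative storage protein, had 2.67, 2.66, 3.22 and 2.54 CPM in dxo1-2, against 7.09, 35.5, 15.7 and 16.1 CPM in Col-0, so every mutant library held under 4 CPM. ORA47, a transcription factor that activates synthesis genes, moved opposite to them, with 12.4, 19.3, 18.4 and 22 CPM in dxo1-2, against 0.473, 1.51, 3.41 and 7.17 CPM in Col-0, a log2 change of 2.49 ± 0.52 (SE) at an edgeR adjusted p of 0.00072. The other rises were TAT3, with overlap, and KTI1, a trypsin inhibitor, which averaged 18.5 CPM in dxo1-2 and was at 0 in every Col-0 library. The 3 rises became 1 without any of several libraries (replicates 1, 3 and 4 of Col-0 and replicates 1 and 2 of dxo1-2). Of 10 tested JAZ repressors, which block the response and are degraded when the hormone is perceived, 3 fell and 1 rose. TIFY7 averaged 143 ± 24.5 CPM in dxo1-2 and 283 ± 40.5 CPM in Col-0. JAZ1 rose, with overlapping ranges and a call lost in 12 of 17 other settings.

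**Figure D4:**
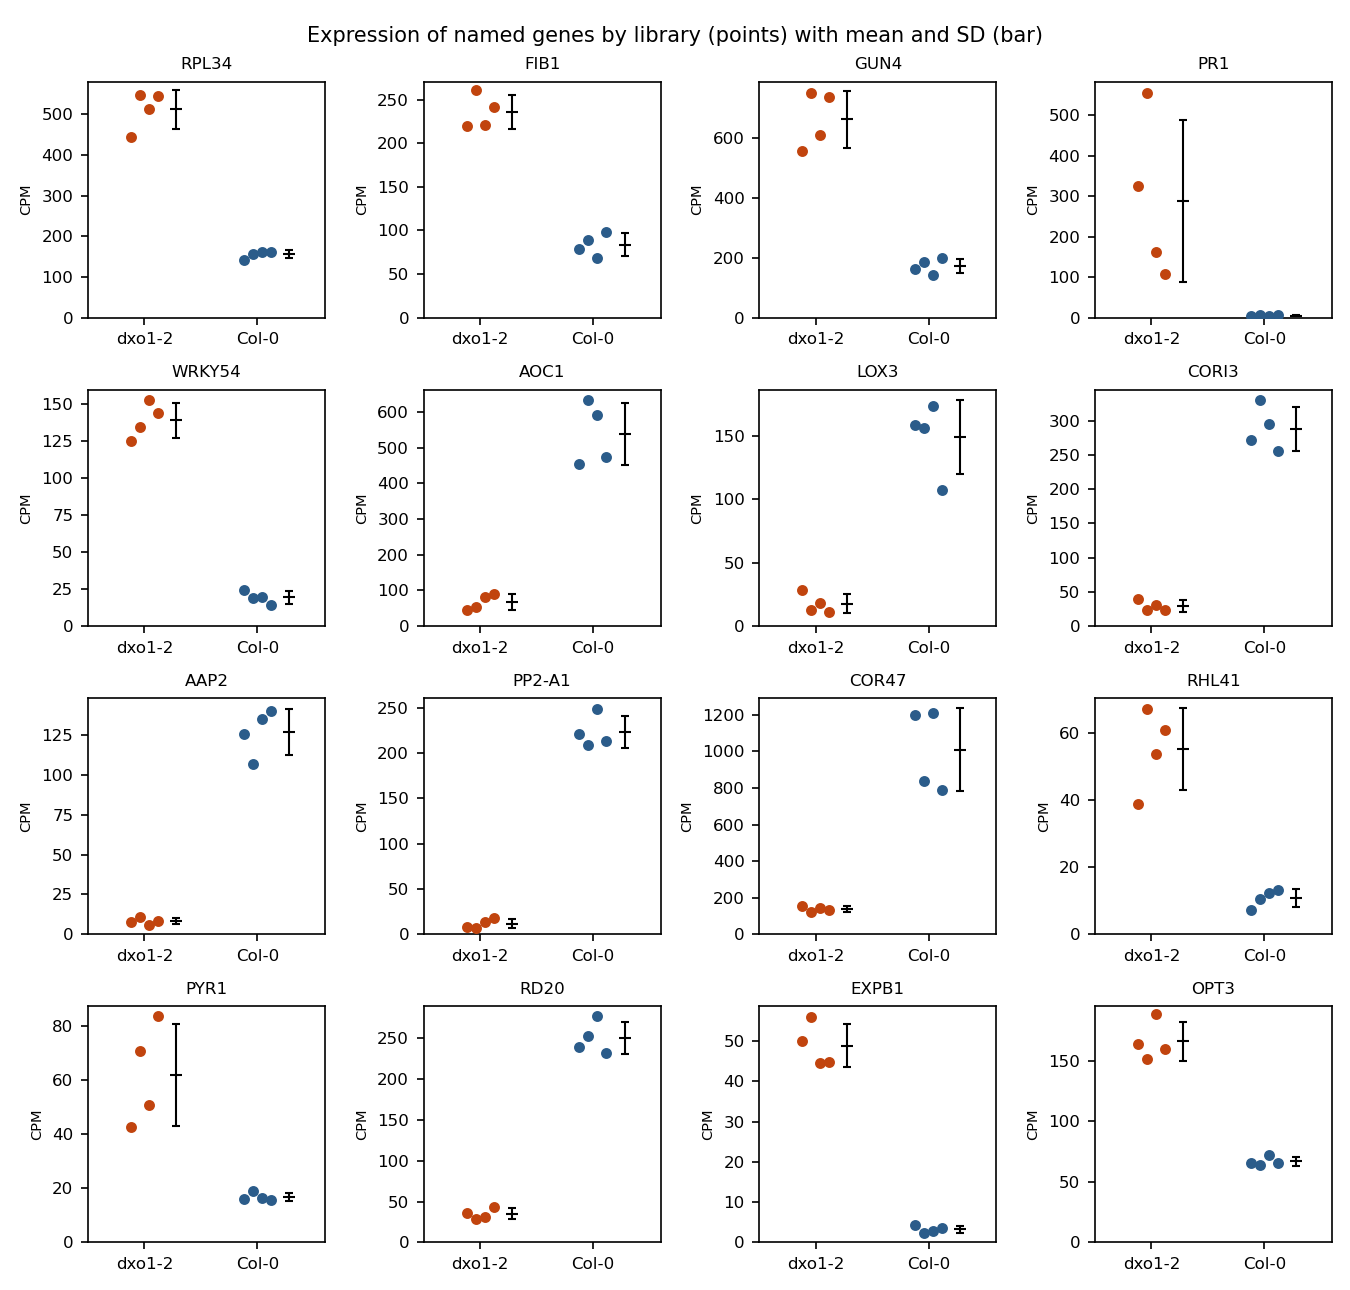
CPM (y axis, linear from 0) of 16 named genes in the dxo1-2 and Col-0 libraries (x axis). Points are libraries and bars are means with SD (n = 4 each). RPL34, FIB1, GUN4, PR1, WRKY54, RHL41, PYR1, EXPB1 and OPT3 are higher in dxo1-2, and the other 7 genes are lower, with no overlap. The genes drawn are a selection, and 26.1% of all genes tested did not overlap.

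The cold response split between regulators and effectors. CBF transcription factors are induced by chilling and activate COR genes, whose products protect cells from freezing and drying. Of 16 genes 5 rose and 11 fell. The 11 that fell are all effectors such as COR47, COR15B and COR413IM1. COR47, a dehydrin, had 154, 119, 144 and 134 CPM in dxo1-2, against 1200, 839, 1210 and 787 CPM in Col-0, a log2 change of -2.87 ± 0.26 (SE) at an edgeR adjusted p of 8.4e-09. COR15B, which protects chloroplast membranes, had 371, 584, 514 and 709 CPM in dxo1-2, against 1890, 1540, 1870 and 2030 CPM in Col-0, a log2 change of -1.75 ± 0.23 (SE) at an edgeR adjusted p of 2e-06. The list summed to 3080, 5040, 4870 and 6310 CPM in dxo1-2, against 15600, 13000, 14800 and 15400 CPM in Col-0. The 5 that rose are transcription factors, of which DREB1A and STZ overlapped between genotypes. CBF2 had 18.7, 46, 19.3 and 39.7 CPM in dxo1-2, against 1.42, 2.27, 9.54 and 4.18 CPM in Col-0, a log2 change of 2.83 ± 0.50 (SE) at an edgeR adjusted p of 0.00012, and CBF1 averaged 24.2 ± 10.2 CPM in dxo1-2 and 6.65 ± 1.92 CPM in Col-0. RHL41, a zinc finger protein also known as ZAT12, had 38.7, 67.3, 53.8 and 60.9 CPM in dxo1-2, against 7.09, 10.6, 12.3 and 13.1 CPM in Col-0, a log2 change of 2.35 ± 0.39 (SE) at an edgeR adjusted p of 4.8e-05. The CBF genes were named after their values were seen. The count of rises was 3 without any 1 of replicates 1 and 2 of Col-0 and 2 and 4 of dxo1-2.

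The evening element (AAAATATCT) is a motif of clock-controlled genes. A promoter that holds it is shown for CCL, an abundant gene whose messenger is degraded under clock control and which was called lower. The line gives the 250 bases before the annotated start in TAIR10.1 (RefSeq), 5' to 3', and matches to the element on either strand are in capitals.
CCL promoter, chr3:9827432-9827681, plus strand: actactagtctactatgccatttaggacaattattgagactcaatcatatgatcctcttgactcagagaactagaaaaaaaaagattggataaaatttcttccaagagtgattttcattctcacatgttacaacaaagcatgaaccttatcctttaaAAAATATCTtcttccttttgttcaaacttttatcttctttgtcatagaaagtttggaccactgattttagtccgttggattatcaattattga
The element was in 33.3% of the promoters of the 18 clock genes tested, in 5.41% of genes called lower, in 2.51% of genes called higher and in 2.69% of all. The CRT/DRE core (CCGAC) to which CBF proteins bind was in 37.5% of the 16 cold response promoters and in 13.4% of all. It was in 16.9% of genes called lower and in 12.5% of genes called higher. The promoter windows of COR47, COR15B and COR413IM1 held no match to it.

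COR27, a cold-regulated gene that acts in the clock, had 33.4, 44, 47.4 and 65.1 CPM in dxo1-2, against 191, 212, 226 and 239 CPM in Col-0, a log2 change of -2.21 ± 0.35 (SE) at an edgeR adjusted p of 2.6e-05. CCL had 647, 1100, 934 and 1260 CPM in dxo1-2, against 1690, 1480, 2080 and 2020 CPM in Col-0, a log2 change of -0.89 ± 0.25 (SE) at an edgeR adjusted p of 0.0112. Of 18 clock genes 4 fell and 2 rose. TOC1, an evening repressor, had 54.8, 58, 64.4 and 44 CPM in dxo1-2, against 88.9, 89.2, 129 and 100 CPM in Col-0, a log2 change of -0.87 ± 0.17 (SE) at an edgeR adjusted p of 0.00025. LCL1, a morning gene of the LHY family, averaged 54 ± 9.6 CPM in dxo1-2 and 31.7 ± 7.01 CPM in Col-0 (SD, n = 4 each). The morning genes CCA1 and LHY had log2 fold changes of 1.98 and 1.14 and were not called. The hour of harvest is not given in the sources used here, and its part was not tested.

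Abscisic acid, the drought hormone, is bound by PYR/PYL receptors, which then inhibit clade A phosphatases and release the response. Of 8 tested receptor genes 5 rose, and none fell. Of 7 phosphatase genes 1 fell, and of 7 output genes 2 fell. PYR1 had 42.4, 70.6, 50.6 and 83.7 CPM in dxo1-2, against 16.1, 18.9, 16.4 and 15.5 CPM in Col-0, a log2 change of 1.87 ± 0.23 (SE) at an edgeR adjusted p of 8.6e-07. PYL7 had 105, 132, 135 and 98.9 CPM in dxo1-2, against 53, 62, 60.6 and 59.7 CPM in Col-0, a log2 change of 1.00 ± 0.18 (SE) at an edgeR adjusted p of 0.00017. RD20, a lipid-droplet protein induced by drought, had 35.7, 28.6, 31.7 and 44 CPM in dxo1-2, against 240, 253, 277 and 232 CPM in Col-0, a log2 change of -2.84 ± 0.45 (SE) at an edgeR adjusted p of 3.3e-05. The receptor sum was 288, 411, 354 and 443 CPM in dxo1-2, against 187, 204, 193 and 191 CPM in Col-0. The output sum was 413, 331, 354 and 302 CPM in dxo1-2, against 805, 758, 839 and 794 CPM in Col-0. Neither sum overlapped. The count of rises was 3 without any 1 of replicates 1, 3 and 4 of Col-0 and 2 and 4 of dxo1-2.

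Of 18 tested genes of sugar starvation and of the class II trehalose phosphate synthases, 6 fell and none rose, with a median log2 fold change of -0.75. DYL1 had 9.02, 30.6, 23.5 and 25.4 CPM in dxo1-2, against 116, 110, 216 and 156 CPM in Col-0, a log2 change of -2.81 ± 0.42 (SE) at an edgeR adjusted p of 1.3e-05. TPS10 had 34.1, 21.3, 41.4 and 30.4 CPM in dxo1-2, against 99.3, 92.3, 108 and 77 CPM in Col-0, a log2 change of -1.55 ± 0.21 (SE) at an edgeR adjusted p of 2.7e-06. ASN1, asparagine synthetase, was at most 2 CPM in the mutant libraries and at least 5.68 CPM in Col-0.

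In the iron list, 6 of 10 tested genes rose, and among the 7 tested genes of the deficiency response 5 rose. OPT3, the phloem iron transporter, had 164, 152, 189 and 160 CPM in dxo1-2, against 65.7, 64.3, 72.2 and 65.7 CPM in Col-0, a log2 change of 1.31 ± 0.17 (SE) at an edgeR adjusted p of 1.3e-06. AT2G30766, which the reference leaves uncharacterized and which was listed as an iron deficiency gene, had 52.1, 86.6, 109 and 186 CPM in dxo1-2, against 5.2, 9.83, 8.18 and 5.97 CPM in Col-0, a log2 change of 3.90 ± 0.45 (SE) at an edgeR adjusted p of 3.4e-07. NAS4, which makes the iron chelator nicotianamine, averaged 17.1 ± 1.33 CPM in dxo1-2 and 4.3 ± 1.97 CPM in Col-0. The ferritin FER1, the iron store that falls under deficiency, had 162, 234, 233 and 175 CPM in dxo1-2, against 191, 200, 140 and 178 CPM in Col-0, overlapping, and was not called, while FER3 rose, averaging 78.5 ± 10.4 CPM in dxo1-2 and 43 ± 8.7 CPM in Col-0 (SD, n = 4 each).

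In the sulfur list 5 of 9 tested genes rose. APR2, the reductase that commits sulfate to assimilation, had 87.5, 65.3, 80 and 75.3 CPM in dxo1-2, against 32.2, 21.9, 18.4 and 15.5 CPM in Col-0, a log2 change of 1.79 ± 0.23 (SE) at an edgeR adjusted p of 1.4e-06. LSU2, induced by low sulfur, averaged 29.9 ± 6.95 CPM in dxo1-2 and 8.43 ± 2.01 CPM in Col-0. Nitrate genes were mixed, with 4 rises and 1 fall among 11. LBD39 and LBD37, which repress nitrate uptake genes, averaged 39.8 ± 7.41 CPM in dxo1-2 and 9.41 ± 0.954 CPM in Col-0, and 158 ± 39.7 CPM in dxo1-2 and 58.7 ± 8.41 CPM in Col-0. The cytosolic glutamine synthetase gene AT5G37600 fell, averaging 50 ± 6.17 CPM in dxo1-2 and 148 ± 13.6 CPM in Col-0 (SD, n = 4 each). Of 4 tested phosphate genes 1 rose and 1 fell.

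Of 8 tested flavonoid genes 5 rose, and 3 without replicate 1 of dxo1-2 or replicate 3 of Col-0. UGT78D1 and UGT78D2, which add sugars to flavonols and anthocyanins, rose by 2.39 (SE 0.34) and 2.2 (SE 0.31) on the log2 scale, at edgeR adjusted p of 8.1e-06 and 4.9e-06. Of 20 aliphatic glucosinolate genes 4 rose and 1 fell, and of 19 indole glucosinolate and camalexin genes 3 rose and 4 fell. Both counts moved by over 1.5 times when single libraries were left out, to as few as 1 rise without replicate 3 of Col-0 or of dxo1-2 in the first list and to 0 rises without replicate 1 of dxo1-2 in the second. In the second list the falls counted 1 or 2 without replicate 2, 3 or 4 of Col-0 or replicate 1, 2 or 3 of dxo1-2. The camalexin gene CYP71A13 had 25.7, 12.7, 4.14 and 2.54 CPM in dxo1-2, against 0.946, 1.51, 1.36 and 2.99 CPM in Col-0, with overlap.

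Among cell wall genes 7 of 26 rose and 2 fell (4 without replicate 1 of dxo1-2), and 6 of the rises lay in expansins, which loosen walls during growth. The list holds 11 expansins and not the whole family, and of these 6 rose and 1 fell. By symbol, 11 EXPA genes were tested, of which 5 rose and 3 fell. Besides EXPA4, the falls were EXPA16, by 2.57 on the log2 scale (SE 0.19, edgeR adjusted p 4.1e-10), and EXPA9, by 1.09 (SE 0.32, edgeR adjusted p 0.0141), both outside the list. EXPB1 had 50.1, 56, 44.6 and 44.8 CPM in dxo1-2, against 4.26, 2.27, 2.73 and 3.58 CPM in Col-0, a log2 change of 3.86 ± 0.28 (SE) at an edgeR adjusted p of 2.3e-10. EXPA4 went the other way, averaging 17.3 ± 4.88 CPM in dxo1-2 and 46.3 ± 6.05 CPM in Col-0. Of 11 tested wax genes 2 rose and 4 fell. LTPG1, which exports wax, rose, averaging 206 ± 31.1 CPM in dxo1-2 and 118 ± 8.15 CPM in Col-0. The elongase gene KCS6 fell, averaging 280 ± 29.4 CPM in dxo1-2 and 534 ± 6.92 CPM in Col-0 (SD, n = 4 each). The wax ester synthase gene WSD1 also fell, and was at 0 in every dxo1-2 library, against a mean of 3.26 CPM in Col-0.

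The phloem list held 3 falls, 2 of them large. PP2-A1, a lectin of sieve elements, had 8.35, 7.33, 13.3 and 17.8 CPM in dxo1-2, against 221, 209, 249 and 214 CPM in Col-0, a log2 change of -4.30 ± 0.23 (SE) at an edgeR adjusted p of 8.8e-13. AAP2, an amino acid transporter of the phloem, had 7.68, 10.7, 5.98 and 8.46 CPM in dxo1-2, against 126, 107, 135 and 140 CPM in Col-0, a log2 change of -3.98 ± 0.19 (SE) at an edgeR adjusted p of 4.5e-14. Across the 17 tested there were 3 falls and 1 rise, with 7 falls without replicate 1 of dxo1-2. The phloem identity factor APL, at 9.89 ± 5.62 CPM in dxo1-2 and 13.6 ± 1.24 CPM in Col-0 (SD, n = 4 each), and the structural sieve element gene SEOR1, with a log2 fold change of -0.02, were not called. PP2-A2, a related lectin, rose, averaging 8.76 ± 1.14 CPM in dxo1-2 and 1.19 ± 0.866 CPM in Col-0 (SD, n = 4 each).

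Of 20 tested genes of decapping, exonucleases, capping and cap binding 2 rose and 2 fell (10% each), against 14.7% and 7.93% of all genes tested. The falls counted 4 without replicate 1 of dxo1-2. EIF4E, the cap-binding translation factor, had 78.1, 89.9, 83.7 and 87.1 CPM in dxo1-2, against 25.5, 33.3, 21.8 and 34.6 CPM in Col-0, a log2 change of 1.55 ± 0.20 (SE) at an edgeR adjusted p of 1.3e-06, and its relative LSP1 averaged 46.7 ± 4.58 CPM in dxo1-2 and 30 ± 4.02 CPM in Col-0. XRN4, the cytoplasmic 5' to 3' exonuclease, had 4.01, 2.66, 1.84 and 0.846 CPM in dxo1-2, against 2.84, 9.83, 10.2 and 7.76 CPM in Col-0, with overlap and a log2 change of -1.52 ± 0.54 (SE) at an edgeR adjusted p of 0.0406. The other fall was AT1G77680, of the ribonuclease II/R family, averaging 13 ± 3.13 CPM in dxo1-2 and 28.9 ± 4.27 CPM in Col-0 (SD, n = 4 each). It did not overlap, with a log2 change of -1.14 ± 0.31 (SE) at an edgeR adjusted p of 0.00722. Of 7 tested silencing genes AGO1 alone fell, averaging 17.2 ± 8.65 CPM in dxo1-2 and 38.2 ± 3.03 CPM in Col-0 (SD, n = 4 each), a call lost in 3 of 17 other settings. Mitochondrial stress genes included 2 rises among 8, DIC2, a dicarboxylate carrier, with 146, 194, 143 and 140 CPM in dxo1-2, against 23.2, 25.7, 22.5 and 28.7 CPM in Col-0, and AOX1A, the alternative oxidase. Of 13 genes of folding in the endoplasmic reticulum none was called by edgeR or DESeq2 and 2 had an unadjusted p under 0.05, while 3 were called higher when only the 8 libraries were fitted.

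Gene families defined by a shared symbol were ranked by the share of members called. Among 126 families with at least 8 genes tested, the highest share of rises was in TIM, the mitochondrial import translocases, with 7 of 11 (63.6%), and none fell. TIM17-1 rose by 2.34 on the log2 scale (SE 0.41, edgeR adjusted p 0.00011). SAUR genes, which answer auxin, followed with 6 of 10, among them SAUR63 at 1.81 (SE 0.34, edgeR adjusted p 0.00019). Tau glutathione transferases had 6 of 11 with 1 lower, and WRKY factors 17 of 33 with none lower. ERF factors had 9 of 19 with 2 lower. The ethylene response factor ERF4 rose by 2.50 (SE 0.29, edgeR adjusted p 3.0e-07).

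Falls were most frequent in COR genes, with 6 of 8 (75%), and in LHCB genes, with 6 of 9 (66.7%), which repeat lists above. The RD genes of drought response had 5 of 8. RD19, a vacuolar cysteine protease, fell by 1.58 on the log2 scale (SE 0.13, edgeR adjusted p 8.8e-10). BGLU, the beta-glucosidases, had 6 of 11, TLP 5 of 10, RAP 4 of 9 with 2 rises, and ERD 5 of 12. ALDH, the aldehyde dehydrogenases, had 5 of 13 with 1 rise. These families were chosen for their shares, so the shares are a description. The shares are as fitted and were not recounted with the length trend removed. By exon length, 27.3% of genes in the shortest tertile rose, against 4.31% in the longest.

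**Figure D5:**
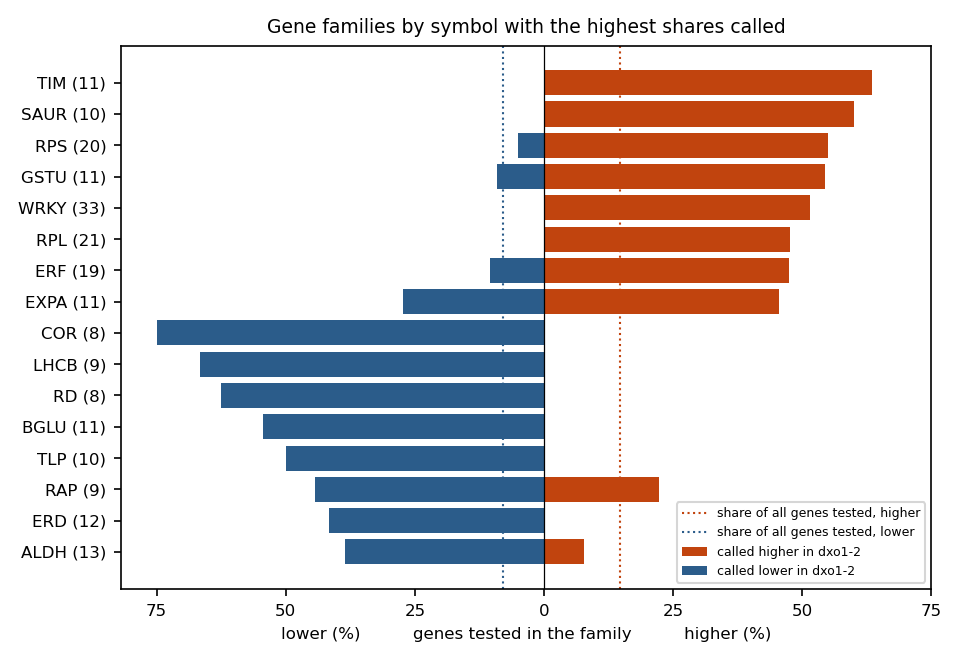
Percent of genes tested in each symbol family (y axis, number tested in brackets) called higher (red, to the right) or lower (blue, to the left) in dxo1-2. Dotted lines are the shares of all genes tested, 14.7% higher and 7.93% lower. TIM has the highest share of rises and COR the highest share of falls.

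Outside the lists, genes were named for their abundance among those called. AT5G42530, uncharacterized, had 4840, 8040, 6410 and 8190 CPM in dxo1-2, against 4110, 3970, 2890 and 4000 CPM in Col-0, a log2 change of 0.88 ± 0.21 (SE) at an edgeR adjusted p of 0.00312. The lipid transfer protein gene LP1 had 2890, 4670, 3770 and 3880 CPM in dxo1-2, against 1320, 1360, 940 and 1590 CPM in Col-0, a log2 change of 1.55 ± 0.22 (SE) at an edgeR adjusted p of 5.1e-06. SSR16, an organellar ribosomal protein, averaged 2340 ± 492 CPM in dxo1-2 and 1250 ± 207 CPM in Col-0. The most abundant that fell included GRP7, an RNA-binding protein of a clock-driven loop, with 1340, 1980, 2050 and 2540 CPM in dxo1-2, against 3580, 3880, 3810 and 4400 CPM in Col-0, a log2 change of -0.99 ± 0.24 (SE) at an edgeR adjusted p of 0.00361. AT1G54410, a dehydrin, averaged 1840 ± 377 CPM in dxo1-2 and 3390 ± 178 CPM in Col-0, and MT2A, a metallothionein, averaged 733 ± 241 CPM in dxo1-2 and 1580 ± 127 CPM in Col-0 (SD, n = 4 each). In these genes too, the genotypes did not overlap.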

How the data were processed

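Counts per gene were used as deposited, 1 file per library with 37184 loci each. Per the labels, 3' RNA-seq libraries were primed with barcoded oligo(dT), tagmented and read with a molecular identifier in 1 read. The submitters' processing notes name STAR 2.7.8a, DESeq2 and the TAIR10 build. How identifiers, strand and reads shared between copies were treated is not given in the sources used here. CPM values were computed from the deposited counts with edgeR 4.0.16 (TMM scaling) in R 4.3.3. Genes passing filterByExpr by group were tested with the quasi-likelihood F test in 1 fit of all 24 libraries, for dxo1-2 against Col-0, with Benjamini-Hochberg adjustment and calls at an adjusted p under 0.05. Each gene below is tested over all genes, with no test of a list. Members and lists were chosen with earlier results of these data known. Named genes are DXO1, in each list the 3 called members with the smallest p and 1 that moved against most, and outside the lists the 6 most abundant called in each direction. Other genes named were chosen after their values were seen. Symbols, promoters and coordinates come from RefSeq TAIR10.1, which matched 36899 of the loci. The code was tested on simulated data. Alternatives were DESeq2 1.42.0, other filters and scalings, a fold threshold, a replicate block, a gene-length trend (lowess, span 0.3) and leaving out each library.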

Additional observations from a re-analysis of the deposited data

Results flagged for a closer look

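Of 322 groups of 4 libraries examined, 14 held a library whose gap to its nearest neighbour was large for the range of its group. Chance flags about 1 in 20 groups. Among dxo1-2 libraries these were ASN1 at 0 CPM in replicate 3, MBF1C at 28.7 CPM in replicate 4, LTPG1 at 160 CPM in replicate 1 and DIC2 at 194 CPM in replicate 2. The summed cytosolic heat shock genes stood at 35.5 CPM in replicate 4 of dxo1-2. Among Col-0 libraries they were PPOX at 111 CPM in replicate 2, NIMIN1 at 4.73 CPM in replicate 1, and in replicate 3 LCL1 at 42.2 CPM, TSO2 at 14.3 CPM, KCS6 at 523 CPM, ATCG01130 at 780 CPM, AT5G42530 at 2890 CPM and AT2G45180 at 1950 CPM. The summed flower markers stood at 83.1 CPM in replicate 3 of Col-0.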

How the results depend on the processing

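The genes called in dxo1-2 against Col-0 numbered 3072, and ran from 2423 to 3493 under DESeq2, stricter or no filtering, other scaling, the 8 libraries alone, organelle genes left out and the length trend removed. With the length trend removed, genes called lower in dxo1-2 numbered 1691. Against a fold of 1.5, 1285 genes were called, 988 higher and 297 lower. Leaving out each library gave 2468 to 3247 calls, 1634 to 2030 higher and 801 to 1217 lower, and a DXO1 log2 change of -2.35 to -2.12. With replicate number as a block 3352 genes were called. Same-numbered libraries correlated at 0.0169 to 0.224, and 1 of 4 matched its own number best, so the numbers were not taken as pairs. No named result reversed its sign. With at least 10 counts required in every library, rises numbered 8 in salicylate output, 3 in iron status, 2 in cold response and 1 each in sulfur status and flavonoid synthesis. Against a fold of 1.5, falls numbered 2 in photosystem antenna and 5 in photosystem core. Replicate 1 of dxo1-2 and the length trend move with the results, and their part was not tested. Depth limits calls for genes at a few CPM.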
